A study of Mus musculus with 12 samples.

Results

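Chondromodulin (Cnmd) and 7 cartilage-associated genes, Acan, Hapln1, Matn1, Matn3, Comp, Sox5 and Sox6, were read from an expression table of 56495 genes in the mouse urogenital sinus at E18.5, shortly before birth. The 8 genes were taken by name, and the values of Cnmd in males and females were known when the set was drawn up. Its sex difference is therefore given as a description and without a test. The table held 12 libraries in 4 groups of 3: mutant males, mutant females, wild type males and wild type females. Mutant animals had the genotype Inv(Itga6-nsi)d11lac, by its name an inversion with one end at Itga6 and the other at nsi, together with the allele d11lac. The wild type groups carried neither. Per the labels, dissection removed the bladder and left the proximal urethra attached, plus the vagina in females, so male and female samples also differ in the organs they contain. Strain, litter and the number of animals behind a library are not given in the labels. Values are FPKM, fragments scaled to gene length and library size, and were further divided by a median-ratio factor per library ("scaled FPKM").

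Hyaline cartilage is a matrix of type II collagen and of aggrecan, the large proteoglycan encoded by Acan, which Hapln1 ties to hyaluronan. Matrilins (Matn1, Matn3) and the thrombospondin Comp bridge the collagen fibrils, and SOX5 and SOX6 act with SOX9 to switch this matrix on in chondrocytes. Cnmd encodes a transmembrane glycoprotein whose released domain restrains blood vessel growth and which is best known from avascular cartilage, with tenomodulin (Tnmd) as its relative in tendon. The urogenital sinus is a tube of epithelium and mesenchyme that forms the urethra and, in males exposed to androgen, the prostate.

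In the mm39 coordinates of the table, Cnmd (ENSMUSG00000022025) lies on chromosome 14 at 79875130-79899610 on the minus strand. Acan (ENSMUSG00000030607) lies on chromosome 7 at 78703231-78764847 on the plus strand. Upstream sequences are shown for these genes because the library patterns of Cnmd and Acan are set against each other in what follows. They are the 250 bases before the transcription start in RefSeq's annotation of GRCm38.p6, at chr14:79662184-79662433 (minus strand) for Cnmd and chr7:79052976-79053225 (plus strand) for Acan. Capitals mark AGAACA, the half-site bound by the androgen receptor and its steroid receptor relatives.
Cnmd: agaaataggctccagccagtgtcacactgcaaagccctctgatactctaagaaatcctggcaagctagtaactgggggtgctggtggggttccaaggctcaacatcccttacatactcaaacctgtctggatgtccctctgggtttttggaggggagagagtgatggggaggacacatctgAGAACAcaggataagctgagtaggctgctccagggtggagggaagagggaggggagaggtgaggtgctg
Acan: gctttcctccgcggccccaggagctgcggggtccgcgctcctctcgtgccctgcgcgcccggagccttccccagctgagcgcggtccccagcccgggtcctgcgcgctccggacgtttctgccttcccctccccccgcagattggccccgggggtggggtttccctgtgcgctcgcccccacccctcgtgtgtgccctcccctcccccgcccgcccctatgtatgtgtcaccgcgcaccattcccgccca
In the window of 250 bases before to 50 after the start, searched on both strands, Cnmd held AGAACA once, with its first base 69 bases before the start, and Acan held none. Across 32851 promoter windows of that length 19.0% held AGAACA. The palindrome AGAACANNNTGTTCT, which contains the half-site, occurred in 0.00913% of all windows and in none of the members' 12 windows. AACAAT, a core letter string of SOX binding, occurred in 10.7% of all windows and in 1 of the 12, a Sox6 window. Of the 8 members 7 had a window, Comp being the exception, and 3 of the 12 windows held AGAACA, those of Cnmd and Sox5 and 1 of 6 of Sox6. A letter match is a description of the window and says nothing of binding.

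Sex and genotype labels were read first. Xist did not exceed 0.241 scaled FPKM in any male and lay at 5.51 to 10.5 across the females, whereas the Y-linked Ddx3y lay at 8.08 to 16.7 across the males and did not exceed 0.0722 in any female. Hoxd13 was at 3.15 to 6.23 in mutants and at 15.1 to 20.5 in wild type libraries. Replicates of a group had correlations of 0.906 to 0.989 across genes, and none were identical. Relative depth, read from the steps of the low values, was 0.582 to 0.717 in mutant and 0.81 to 1 in wild type libraries, taking the deepest library as 1, and absolute depth is unknown. Some libraries stood apart in single lists: mutant female 3 had 5.82 scaled FPKM of the neuronal tubulin Tubb3, against 66.3 to 155 in the other libraries, and mutant female 1 had 77.7 of Matn2, against 123 to 204. Mutant female 1, later seen to be high in Acan, also had 126 of the epithelial gene Epcam, against 55.4 to 73.7 elsewhere. Wild type males 1 and 2 had 426 and 635 of the haemoglobin gene Hbb-bs, against 1620 to 7600 elsewhere. In whole tissue, fewer cells of a type and less RNA per cell cannot be told apart.

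Cnmd was a gene of the male libraries. Its level was 4.04, 3.94 and 3.87 scaled FPKM in the 3 mutant males and 0.0336, 0.134 and 0.105 in the 3 mutant females. In wild type animals it was 3.88, 3.58 and 3.62 in the 3 males and 0.162, 0.341 and 0.301 in the 3 females. Every male library was thus above every female library, and the spread among the 6 males, 3.58 to 4.04, was narrow. Group means were 3.95 ± 0.0873 in mutant males, 0.0906 ± 0.0514 in mutant females, 3.70 ± 0.160 in wild type males and 0.268 ± 0.0935 in wild type females (SD, n = 3 each). The male mean was 43.6 times the female mean in mutants and 13.8 times in wild type. On the log2(scaled FPKM + 0.5) scale, which understates differences of low values, the male minus female difference was 2.92 (SE 0.13) in mutants and 2.46 (SE 0.13) in wild type. Leaving out any one library moved it between 2.85 and 2.97 in mutants and between 2.35 and 2.53 in wild type.

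**Figure D1:**
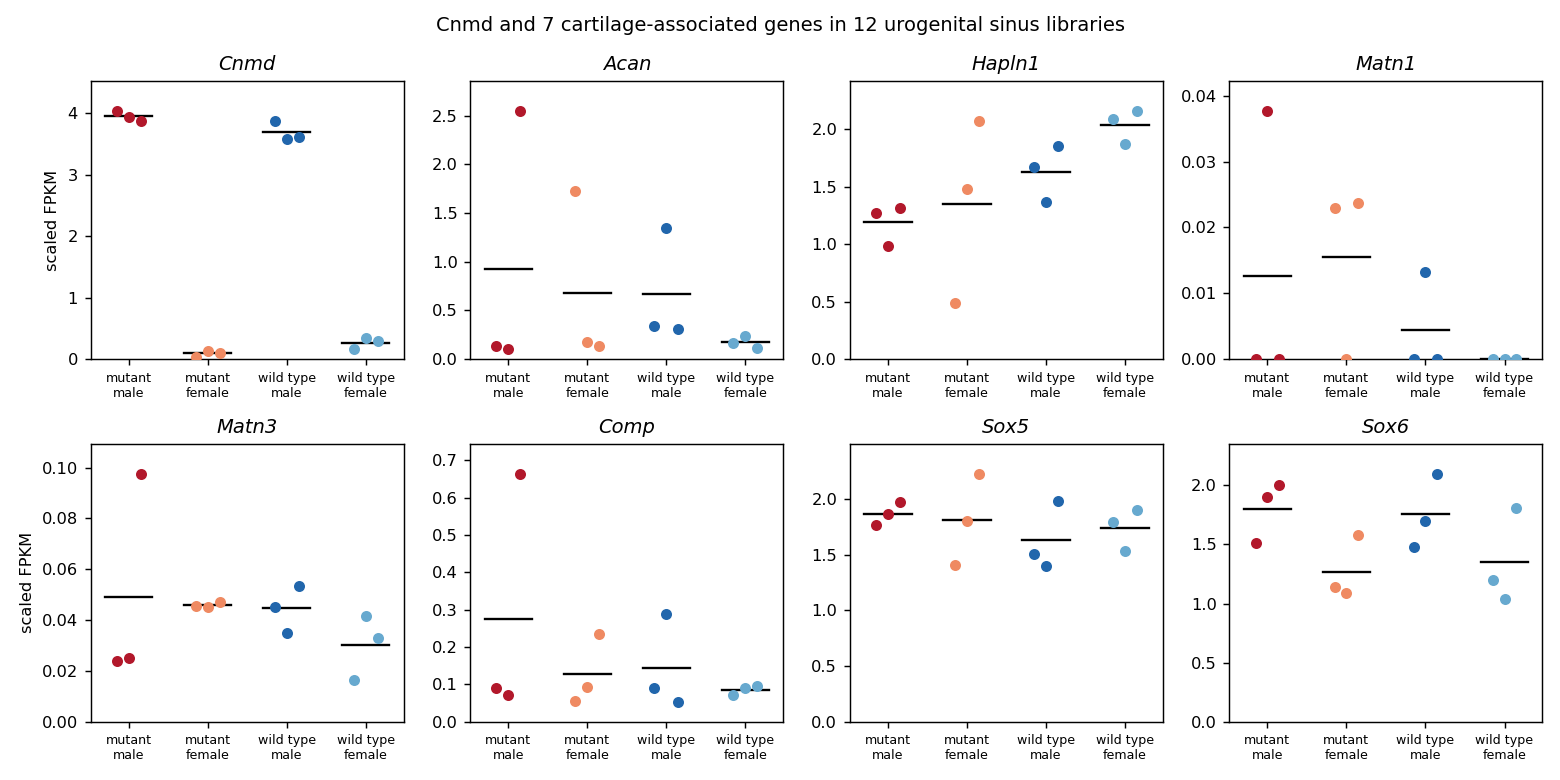
Scaled FPKM of the 8 genes in each library (points) and the mean of each group of 3 (bars), with a separate vertical scale for each gene. Cnmd separates the 6 male from the 6 female libraries, whereas the high Acan points fall in 3 different groups.

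Genotype changed Cnmd less than this. The mutant minus wild type difference was 0.09 in males (SE 0.13, limma adjusted p = 0.678), with overlapping libraries, and turned to -0.05 with the FPKM as deposited and to -0.003 with scaling to the library sums. In females the mutant libraries, at most 0.134, all lay below the wild type libraries, at least 0.162. The female difference of -0.38 (SE 0.13) missed the threshold of an adjusted p of 0.05 (limma adjusted p = 0.0512). It passed with a pseudocount of 0.1 (-0.95, adjusted p = 0.0192), with scaling to the library sums (adjusted p = 0.0431), without wild type female 1 (-0.48, adjusted p = 0.0349) and without mutant female 2 (-0.43, adjusted p = 0.0447), and it missed at up to 0.225 in the other alternatives. All female values lay under the pseudocount of 0.5 and under the filter at 1 FPKM, which Cnmd passed through the males. The size of the female difference ran from -0.95 to -0.22 over the alternatives. Mutant females also had a lower relative depth than wild type females, 0.582 to 0.625 against 0.81 to 1. The part of depth in this difference was not tested. Over both sexes the difference was -0.14 (SE 0.09, limma adjusted p = 0.23). The mutant effect in males minus that in females was 0.46 (SE 0.18, adjusted p = 0.545), and 0.0285 before adjustment over all genes.

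Of the 8 genes, 5 reached 1 FPKM in at least 3 libraries and entered the fit over 13904 genes, and Matn1, Matn3 and Comp stayed under that filter. None of the 5 was called at an adjusted p under 0.05 between mutants and wild type, where the share of all genes called was 20.3% in males (8.64% higher, 11.6% lower), 28% in females (12.1% higher, 15.9% lower) and 40.6% over both sexes. Nor was any called for a difference of the mutant effect between sexes, for which 0% of all genes were called and 1225 genes had an unadjusted p under 0.05. Between males and females no member other than Cnmd was called in either genotype. The share of all genes called was 7.49% in mutants (3.98% higher in males, 3.52% lower) and 3.18% in wild type (1.95% higher, 1.23% lower). The sex difference of Cnmd was known when the set was drawn up and is not read as a test result. The comparisons share libraries and are not independent of each other.

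**Figure D2:**
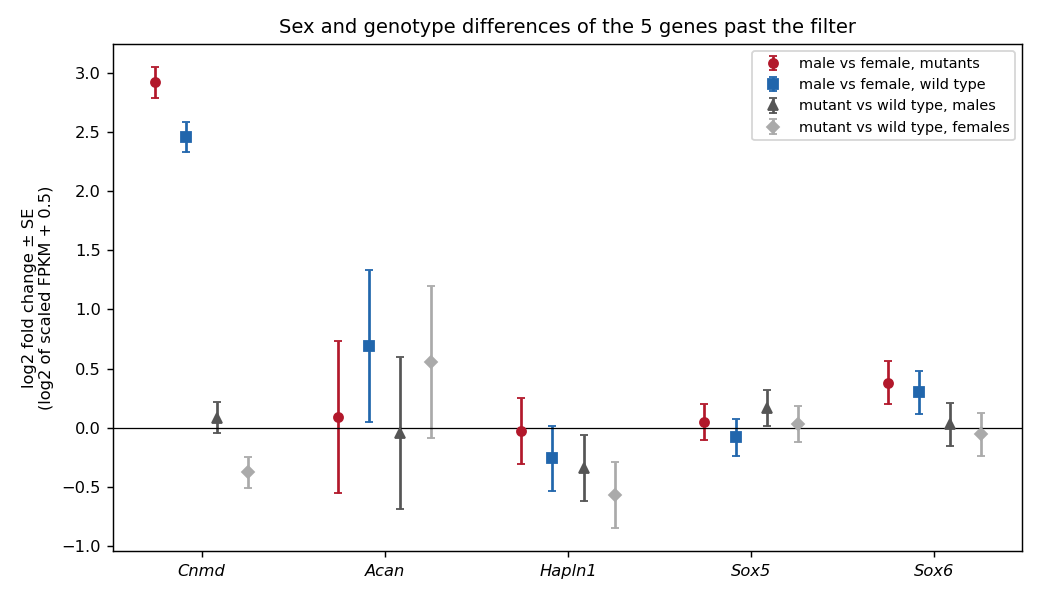
Log2 fold change ± SE of the 5 genes past the filter, for male over female in mutants and in wild type and for mutant over wild type in males and in females. Cnmd stands at 2.92 and 2.46 for sex, whereas Sox6, the next highest in mutants, stands at 0.38.

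Acan, the aggrecan core protein, did not follow Cnmd. It had 0.132, 0.0987 and 2.55 scaled FPKM in mutant males, 1.73, 0.177 and 0.131 in mutant females, 0.343, 1.35 and 0.309 in wild type males and 0.166, 0.232 and 0.118 in wild type females. High values thus came from single libraries, mutant male 3, mutant female 1 and wild type male 2, while the remaining libraries stayed at or below 0.343. Cnmd in these 3 libraries was 3.87, 0.0336 and 3.58, each the lowest value of its own group. The male minus female difference of Acan was 0.09 in mutants (SE 0.64, limma adjusted p = 0.945) and 0.69 in wild type (SE 0.64, adjusted p = 0.606), although the wild type libraries did not overlap. Mutants and wild type overlapped in both sexes, with differences of -0.04 in males and 0.55 in females (SE 0.64 each, limma adjusted p = 0.971 and 0.546), and both signs turned in alternatives that left out a library.

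Col10a1 and Cytl1, looked up after the Acan values were seen, were high in the same libraries. Col10a1, the collagen of hypertrophic cartilage, was at 0.894 scaled FPKM in mutant male 3, 1.55 in mutant female 1 and 1.70 in wild type male 2. It was at 0.424 in mutant female 3 and at or below 0.0602 elsewhere. Cytl1, a secreted protein known from chondrocytes, was at 1.76, 0.893 and 0.947 in the same 3 libraries and at or below 0.392 in the others. Type II collagen (Col2a1) was at 4.16 in mutant male 3, the highest of all libraries. It was at 1.39 in mutant female 1 and 1.54 in wild type male 2, within the range of the remaining libraries (0.388 to 2.08). In all 3 it was the highest of its own group, against 1.91 and 2.08 in the other mutant males. The other mutant females had 0.749 and 1.34, and the other wild type males 0.47 and 1.39. Some cartilage genes, also looked up afterwards, went the other way in mutant female 1. Col9a1 (0.628), Col11a1 (4.84) and Hapln1 (0.488) were there at their lowest of all libraries. Col9a1 was highest in mutant female 2 at 4.93, and Col11a1 in mutant male 3 at 13.8. The part of these libraries in the Cnmd result can be read directly: without all 3 of them, Cnmd still had 3.62 to 4.04 scaled FPKM in males and 0.105 to 0.341 in females.

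**Figure D3:**
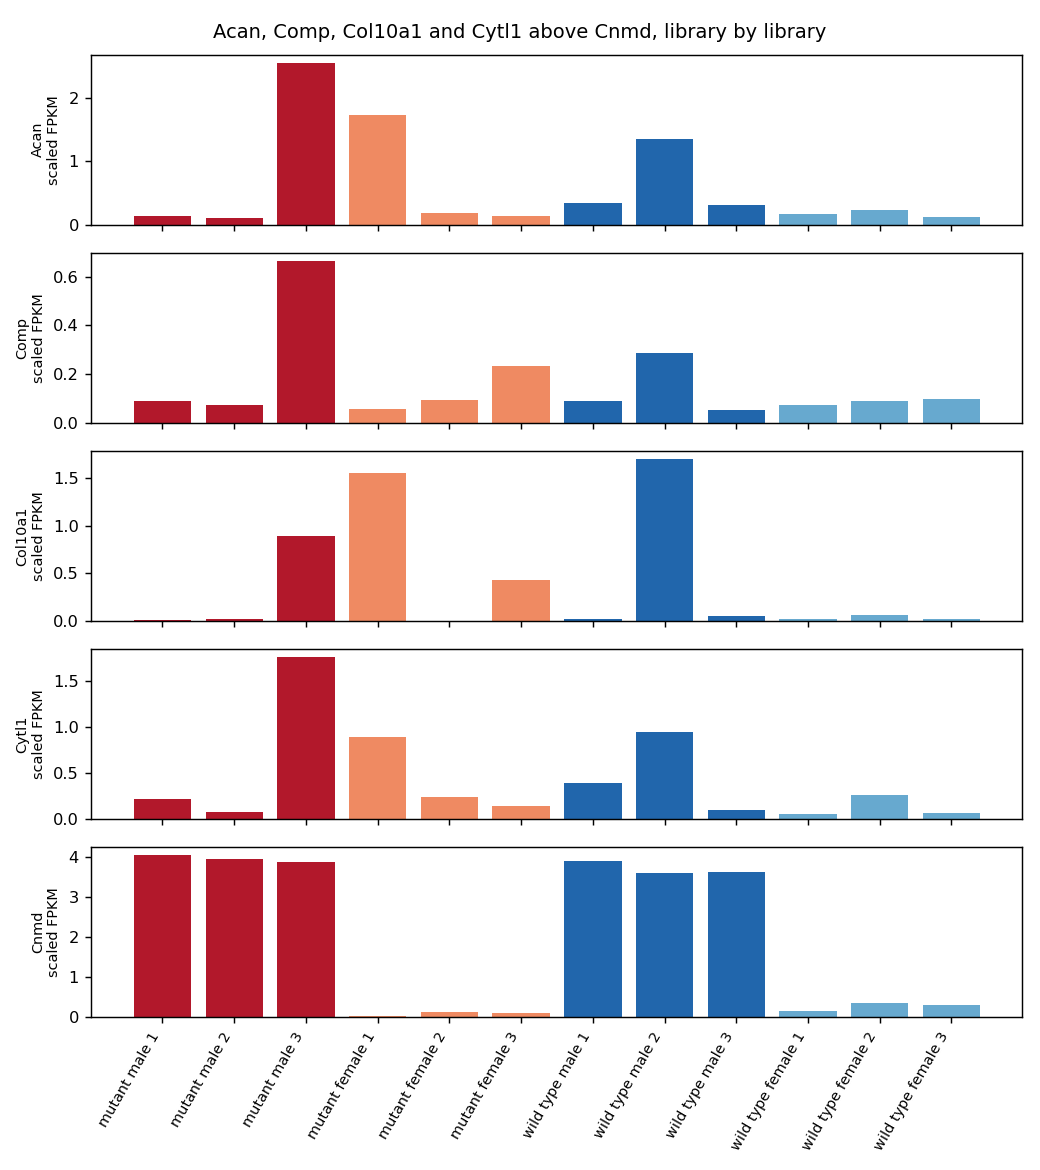
Scaled FPKM of Acan, Comp, Col10a1, Cytl1 and Cnmd in each of the 12 libraries, one bar per library, coloured by group. The libraries high in Acan, mutant male 3, mutant female 1 and wild type male 2, are also high in Col10a1 and Cytl1, and Cnmd keeps the level of its sex in them.

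Hapln1, the link protein that holds aggrecan on hyaluronan, had its highest group mean in wild type females and its lowest in mutant males, unlike Cnmd. It had 1.27, 0.984 and 1.31 scaled FPKM in mutant males, 0.488, 1.48 and 2.07 in mutant females, 1.67, 1.37 and 1.85 in wild type males and 2.09, 1.87 and 2.16 in wild type females. All mutant males lay below all wild type males, and all wild type males lay below all wild type females. The mutant minus wild type difference over both sexes was -0.45 (SE 0.20, limma adjusted p = 0.0866). It passed with the FPKM as deposited (-0.54, adjusted p = 0.0497), with scaling to the library sums (-0.58, adjusted p = 0.0251), without mutant female 3 (-0.60, adjusted p = 0.017) and without the 3 libraries high in Acan (-0.33, adjusted p = 0.0497). It missed in the other alternatives, and it shrank to -0.25 without mutant female 1 and to -0.055 after the GC and length correction (adjusted p = 0.87). In females it was -0.57 (SE 0.28, adjusted p = 0.146), or -0.86 without mutant female 3 (adjusted p = 0.0312), -0.74 with scaling to the library sums (adjusted p = 0.0462), -0.17 without mutant female 1 (adjusted p = 0.444) and -0.093 after that correction (adjusted p = 0.864). The male minus female difference was -0.03 in mutants and -0.26 in wild type (SE 0.28 each, limma adjusted p = 0.963 and 0.663), and in mutants its sign turned in several alternatives.

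Comp, Matn3 and Matn1, which bridge the collagen network, had the lowest means of the 8 members over all libraries (0.158, 0.0425 and 0.00812 scaled FPKM). Comp was highest in mutant male 3 at 0.665 scaled FPKM, then in wild type male 2 at 0.288 and mutant female 3 at 0.234, and lay between 0.0535 and 0.096 in the other libraries. It was thus raised in some of the libraries high in Acan, but not in mutant female 1, where it was 0.0568. Matn3 ranged from 0.0163 to 0.0977, again highest in mutant male 3. Matn1, the matrilin of mature cartilage, was listed at 0 in 8 of 12 libraries and did not exceed 0.0377. In a fit without the filter on low values no comparison of these genes was called, the smallest limma adjusted p being 0.423.

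Sox5 and Sox6, transcription factors that are also expressed outside cartilage, were the only members at 1 scaled FPKM or more in all 12 libraries. Sox5 had 1.40 to 2.23 over all libraries, with group means of 1.87 ± 0.0981 in mutant males, 1.81 ± 0.409 in mutant females, 1.63 ± 0.308 in wild type males and 1.74 ± 0.194 in wild type females (SD, n = 3 each). Sox6 had group means of 1.80 ± 0.261 in mutant males, 1.27 ± 0.266 in mutant females, 1.76 ± 0.311 in wild type males and 1.35 ± 0.405 in wild type females (SD, n = 3 each). Sox6 was on average higher in males, as Cnmd was, but male and female libraries overlapped. Its male minus female difference was 0.38 in mutants and 0.30 in wild type (SE 0.18 each, limma adjusted p = 0.221 and 0.412). The genotype differences of Sox5 and Sox6 lay between -0.05 and 0.17 (limma adjusted p of 0.483 to 0.948), and those near 0 turned their sign with the scaling and with single libraries.

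FPKM are per length, so the 8 genes may be set in order of level. In mutant males and in wild type males Cnmd stood first, above every library of every other member. In mutant females it stood 6th, below Comp, whose libraries overlapped with it, and in wild type females it stood 4th. In wild type females Hapln1, Sox5 and Sox6 came before it, all of them at 1.04 or more and clear of the 0.341 that was its highest female value there. Matn3 and Matn1 closed the order in every group. Over all libraries Sox6 and Hapln1 had the same mean of 1.55 scaled FPKM and Sox5 had 1.76, and their ranges overlapped.

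Whether Cnmd followed the cartilage genes within groups was tested on deviations from the 4 group means, since males and females form separate clusters in Cnmd and a pooled correlation would restate that. Over 12 libraries and 7 relations none passed an exact permutation test over all 1296 arrangements within groups (two-sided, adjusted over 7). Acan had r = -0.41 and Spearman's rho = -0.38 (exact permutation p = 0.0633 and 0.12, adjusted 0.443 and 0.618), and r = -0.39 without wild type female 1 and mutant female 1, the libraries with the largest Cnmd deviations. Hapln1 had r = 0.42 and rho = 0.38 (exact permutation p = 0.367 and 0.263, adjusted 0.855 and 0.618), but r = -0.28 without those libraries, so that its sign rests on them. The other 5 members had r between -0.24 and 0.15 and rho between -0.29 and 0.29 (adjusted p of 0.618 or more), and without the same libraries every r was negative, from -0.23 for Matn3 to -0.84 for Sox6. Cnmd itself varied little within groups, with a pooled within-group SD of 0.115 on the log2 scale, against 0.908 for Acan and 0.376 for Hapln1.

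**Figure D4:**
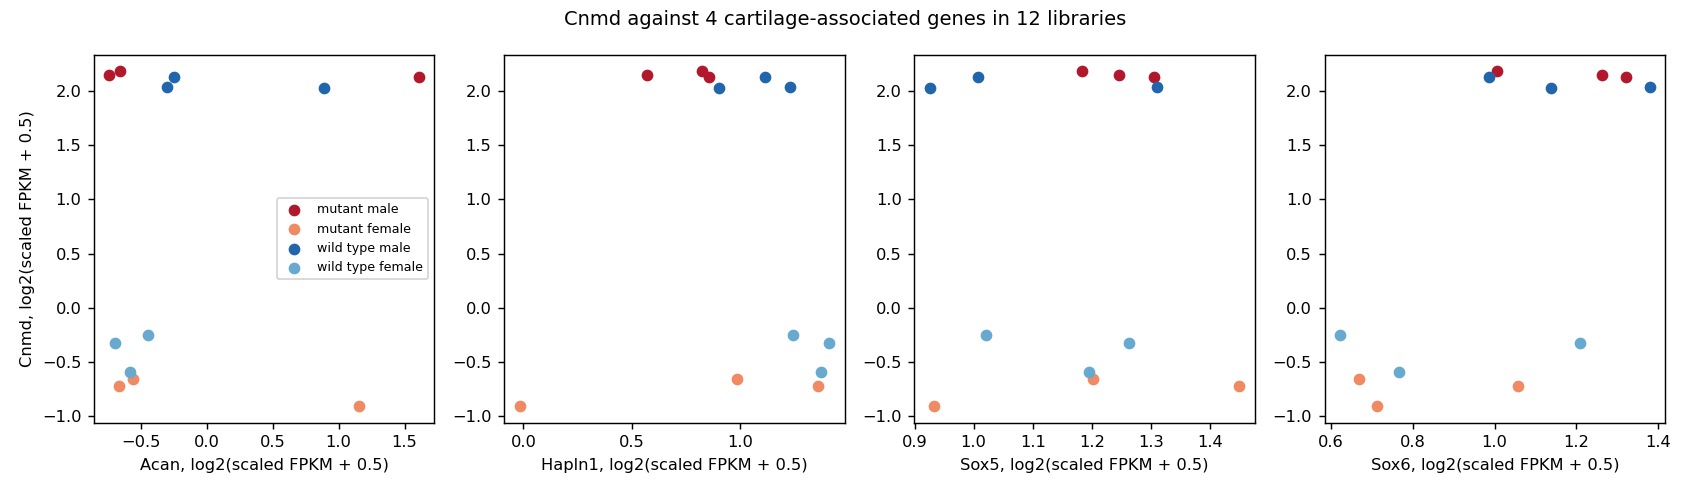
Cnmd against Acan, Hapln1, Sox5 and Sox6, each as log2(scaled FPKM + 0.5), one point per library, coloured by group. The points form a male band near 2.1 and a female band below -0.2 on the Cnmd axis. Among the 6 males r with Cnmd ran from -0.54 (Hapln1) to 0.28 (Sox5). Among the 6 females it ran from -0.61 (Acan) to 0.67 (Hapln1). These r values pool the genotypes and were not tested.

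Among 28 other cartilage matrix and chondrocyte genes, a subset did differ by sex in the direction of Cnmd. Of the 17 past the filter, 6 rose and 0 fell in males over females in mutants, and 6 rose and 0 fell in wild type, with the same names, Papss2, Mia, Epyc, Chst11, Matn4 and Col9a3. Among all genes 3.98% were called higher in males in mutants and 1.95% in wild type. The list's median difference was 0.40 in mutants and 0.55 in wild type, against 0.02 and 0.01 for all genes. The number called higher ran from 3 to 7 in mutants and from 3 to 8 in wild type over the alternatives, and the number called lower stayed at 0. Genes singled out below were picked from the called ones after their values were seen.

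Papss2, which makes the sulphate donor for proteoglycan sulphation, had the smallest adjusted p of the 6 in both genotypes. It had 12.9, 16.1 and 15.2 scaled FPKM in mutant males and 3.05, 4.65 and 4.87 in mutant females, and 13.3, 15.1 and 14.3 in wild type males and 5.04, 5.71 and 5.08 in wild type females. The difference was 1.72 in mutants and 1.35 in wild type (SE 0.15 each, limma adjusted p = 8.39e-05 and 0.000639), and it was called in every alternative. Mia, a secreted protein of chondrocytes and melanoma cells, had 5.03 to 7 in mutant males and 1.13 to 2.43 in mutant females, and 3.37 to 5.83 in wild type males and 0.869 to 1.44 in wild type females. It was higher in males by 1.44 in mutants and 1.55 in wild type (SE 0.25 each, limma adjusted p = 0.00723 and 0.00727), again in every alternative.

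Epyc, a small leucine-rich proteoglycan of growth cartilage, differed with sex and with genotype. It had 0.94, 1.67 and 1.88 scaled FPKM in mutant males, 0.212, 0.686 and 0.215 in mutant females, 5.54, 4.05 and 3.23 in wild type males and 0.943, 1.22 and 1.04 in wild type females. Males were above females in each genotype, by 1.21 in mutants (SE 0.26, limma adjusted p = 0.0192, lost in 5 of 21 alternatives) and by 1.58 in wild type (SE 0.26, adjusted p = 0.00729). Mutants were below wild type in each sex, with mutant minus wild type differences of -1.26 in males (SE 0.26, limma adjusted p = 0.0077) and -0.89 in females (SE 0.26, adjusted p = 0.0246). The genotype differences were no longer called after a correction for GC content and length (-0.67 in males, -0.18 in females and -0.43 with the sexes combined, limma adjusted p = 0.147, 0.686 and 0.111). Chst11, a chondroitin sulphotransferase, and Matn4, a matrilin found in many tissues, were higher in males by smaller amounts, 0.79 and 0.66 in mutants (limma adjusted p = 0.00188 and 0.0139) and 0.48 and 0.61 in wild type (adjusted p = 0.0388 and 0.0299). In wild type Chst11 lost its call in 13 of 22 alternatives and Matn4 in 9.

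**Figure D5:**
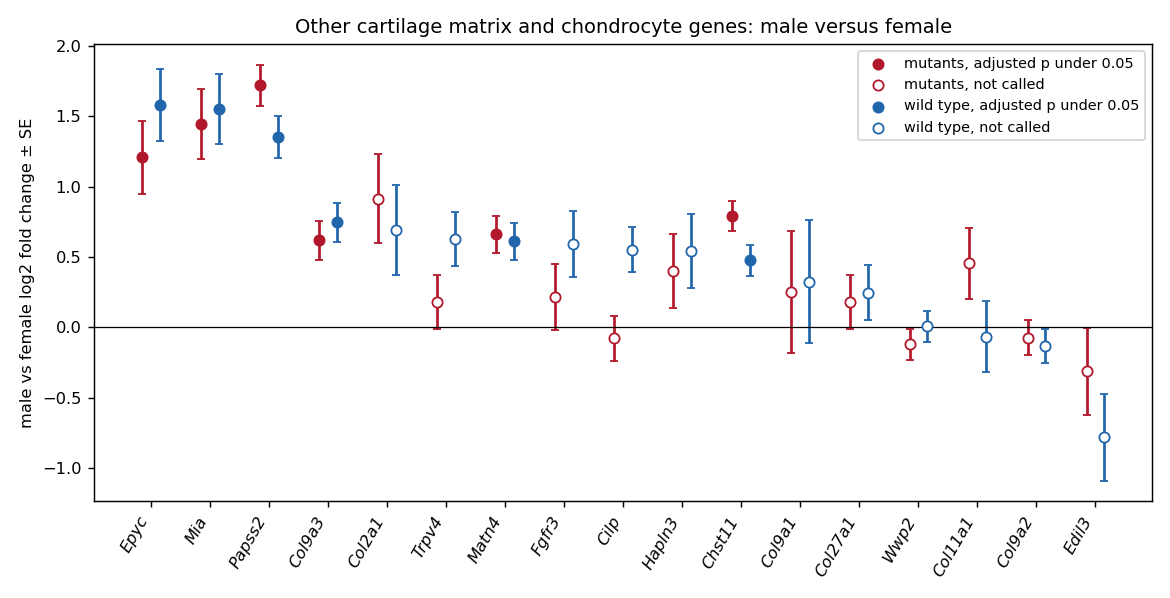
Male over female log2 fold change ± SE of the 17 other cartilage genes past the filter, in mutants and in wild type, with filled points where the limma adjusted p was under 0.05. Papss2, Mia and Epyc stand above 1 in both genotypes, whereas Wwp2, Col9a2 and Edil3 lie near or below 0.

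Genotype gave the same list a mixed picture. In males 3 of 17 rose (Col2a1, Col9a3 and Col9a2) and 2 fell (Epyc and Cilp), against 8.64% and 11.6% of all genes. In females 3 rose (Fgfr3, Trpv4 and Col9a3) and 1 fell (Epyc), against 12.1% and 15.9% of all genes. Over both sexes 7 rose and 1 fell, against 18.9% of all genes called higher and 21.6% lower. Col9a3, a chain of type IX collagen, had 8.23, 6.79 and 7.24 scaled FPKM in mutant males, 6.03, 4.22 and 3.92 in mutant females, 4.57, 5.52 and 5.02 in wild type males and 2.75, 2.77 and 2.86 in wild type females. Within each sex every mutant library was above every wild type library, and the difference with the sexes combined was 0.58 (SE 0.10, limma adjusted p = 0.000931), or 0.31 after the GC and length correction (adjusted p = 0.0347). Col2a1 was higher in mutants by 0.87 with the sexes combined (SE 0.22, limma adjusted p = 0.0096), but by 0.50 and without a call after that correction (adjusted p = 0.139). With the correction 0 of the 17 were called higher and 1 lower in males, 0 and 0 in females, and 1 and 1 with the sexes combined. Over all genes the correction left 503, 1077 and 2387 calls, against 2820, 3895 and 5639 without it. With the FPKM as deposited, 0 were called higher and 2 lower in males, and 0 and 1 in females. Over all genes 1350 and 1666 were then called. The male calls of Col2a1 and Col9a2 were lost in 16 of 21 and 12 of 22 alternatives. Depth also differed by genotype, as given above, and its part in these counts was not tested.

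Col9a2, Wwp2 and Col11a1 had the highest levels of this list, at means of 25.9, 13.6 and 9.62 scaled FPKM over all libraries, and showed no called sex difference. These genes are also expressed outside cartilage. Of the genes nearly confined to cartilage, Ucma was listed at 0 in all but 2 libraries and Snorc in all but 3, and neither exceeded 0.199. Cartilage collagens of the list were above 0 in every library, Col2a1 at 0.388 to 4.16, Col9a1 at 0.628 to 4.93 and Col11a2 at 0.128 to 0.636. Of the 28, 7 stayed under 1 scaled FPKM in every library. The summed level of the list was 131 to 135 in mutant males, 92.7 to 112 in mutant females, 112 to 113 in wild type males and 82.3 to 89.6 in wild type females, with every male library above every female library in each genotype.

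Of 11 chondrogenic regulators, among them Sox5 and Sox6, 7 passed the filter, and Trps1, Zbtb20 and Sox9 had the highest means, 22.6, 10.5 and 3.43 scaled FPKM. Sox9, the master regulator of chondrocytes, which is also active in epithelial buds, had 5.34, 5.82 and 5.11 scaled FPKM in mutant males, 3.19, 2.92 and 3.58 in mutant females, 2.69, 2.84 and 3.88 in wild type males and 1.49, 2.14 and 2.19 in wild type females. With the sexes combined it was higher in mutants by 0.67 (SE 0.11, limma adjusted p = 0.000679, called in every alternative), and was higher in males by 0.67 in mutants (adjusted p = 0.0246, lost in 6 of 21 alternatives) and 0.57 in wild type (adjusted p = 0.0697, not called). Some epithelial genes moved with genotype in the same libraries, and their part in the Sox9 difference was not tested. Of the 8 on the epithelium list, 3 rose and 0 fell in mutants with the sexes combined, against 18.9% and 21.6% of all genes. The list summed to 345 to 602 scaled FPKM in mutant males, 458 to 973 in mutant females, 333 to 400 in wild type males and 330 to 467 in wild type females. The basal keratin Krt5 had 52.2 to 80.4 in mutant males, 72.1 to 140 in mutant females, 17.4 to 36.9 in wild type males and 31.6 to 43.7 in wild type females (1.54, limma adjusted p = 0.000329), and the adhesion gene Cdh1 was higher by 0.93 (adjusted p = 0.00126), both called in every alternative. Sox5 and Sox6, the partners of Sox9 in chondrocytes, were not called in any of these comparisons. Gdf5, a joint-forming signal, ran the other way, with 0.403 to 0.651 in mutant males, 1.26 to 2.31 in mutant females, 0.502 to 0.534 in wild type males and 1.19 to 1.83 in wild type females (-1.13 in mutants and -1.03 in wild type, limma adjusted p = 0.00676 and 0.0147, lost in 1 and 4 of 21 alternatives). Only female libraries of Gdf5 reached 1 FPKM. It thus passed the filter through the sex where it is high, and its sex calls are not read as test results. Of 15 hypertrophic cartilage and bone genes only 4 passed the filter, and 0 were called by sex in either genotype (7.49% of all genes in mutants and 3.18% in wild type). Alpl, Pth1r and Spp1 were its highest genes, at means of 21.2, 10.9 and 2.69 scaled FPKM, and none of these is confined to bone. In this list Phex, a protease of bone cells, was lower in mutants over both sexes (-0.72, limma adjusted p = 0.00248, or -0.33 with adjusted p = 0.13 after the GC and length correction). Before scaling, Phex reached 1 FPKM only in wild type males, which had 0.978 to 1.29 scaled FPKM, against 0.203 to 0.611 in mutants. It thus passed the filter through a group where it is high, and its genotype call is not read as a test result.

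Tendon and perichondrium genes were looked at because Cnmd has its relative there. Tnmd, that relative, had 0.825, 1.00 and 1.92 scaled FPKM in mutant males, 0.507, 0.807 and 1.19 in mutant females, 0.785, 2.45 and 1.41 in wild type males and 0.763, 0.836 and 1.81 in wild type females, with males and females overlapping in both genotypes. Of the 15 genes 3 were higher and 1 lower in males in mutants (3.98% and 3.52% of all genes), and 2 higher and 1 lower in wild type (1.95% and 1.23% of all genes). The tendon regulators split. Mkx was higher in males, with 9.48 to 13.4 in mutant males, 0.991 to 2.98 in mutant females, 8.84 to 10.2 in wild type males and 1.70 to 2.86 in wild type females (2.3 in mutants and 1.91 in wild type, limma adjusted p = 0.000693 and 0.00324, called in every alternative). Scx was lower in males, with 3.94 to 4.52 in mutant males, 9.58 to 24.2 in mutant females, 2.63 to 3.69 in wild type males and 7.08 to 8.36 in wild type females (-1.65 in mutants and -1.13 in wild type, limma adjusted p = 0.00398 and 0.037, the wild type call being lost in 11 of 22 alternatives). The highest levels of the list were those of Dcn, Postn and Ogn, at means of 480, 188 and 55.8 scaled FPKM over all libraries. By genotype 1 of the 15 rose and 6 fell with the sexes combined (18.9% and 21.6% of all genes). Among those that fell were the small proteoglycans Ogn and Aspn and the matrix protein Postn (-1.33, -1.14 and -1.02, limma adjusted p = 0.000188, 0.000853 and 0.00515). With the GC and length correction 0 rose and 1 fell, Ogn (-0.67, adjusted p = 0.015), and over all genes 2387 were called, against 5639 without it.

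In the list of matrilin and hyaluronan link families, 10 of 14 genes passed the filter. Matn2, Vcan and Thbs1 had the highest levels, at means of 153, 63.8 and 31.3 scaled FPKM, far above Matn1 and Matn3 per length. Of the 10, 3 were higher and 1 lower in males in mutants, and 1 higher and 1 lower in wild type, against 3.98%, 3.52%, 1.95% and 1.23% of all genes. In mutants over wild type with the sexes combined 2 were higher and 2 lower, near the shares of all genes (18.9% and 21.6%), with Has2, a hyaluronan synthase, at -0.71 (limma adjusted p = 0.00376, or -0.32 and not called after the GC and length correction, adjusted p = 0.174).

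Markers of other tissues moved with the groups to different extents. Skeletal muscle genes, which could reach the samples with the pelvic wall, summed to 648 to 1020 scaled FPKM in mutant males, 639 to 776 in mutant females, 1040 to 1430 in wild type males and 660 to 872 in wild type females. Of the 12, 0 were called higher and 1 lower in males in mutants (3.98% and 3.52% of all genes), and 4 higher and 0 lower in wild type (1.95% and 1.23%). In mutant males 7 fell against wild type males, where 11.6% of all genes fell. All 12 were above 1 scaled FPKM in at least 1 library. Cnmd differed by sex in both genotypes, and the part of muscle in its level was not tested. Of the smooth muscle, epithelium, blood and endothelium lists (8, 8, 7 and 6 genes) 0 were called by sex in either genotype.

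Genes whose levels were most like Cnmd over all 12 libraries recorded mainly the sex split. Among 12693 genes the highest correlations of log2 values were those of Kdm5d (r = 0.987), Plscr2 (0.986), Dcdc2a (0.985), Papss2 (0.983), Ddx3y (0.982), Wif1 (0.981), Nt5e (0.980) and Tmtc1 (0.979), given without a test. Kdm5d and Ddx3y lie on the Y chromosome, and Papss2 was the one gene of the cartilage lists among them. Wif1, a secreted inhibitor of Wnt signals, had 8.90 to 12.2 scaled FPKM in mutant males, 0.861 to 1.76 in mutant females, 7.96 to 8.33 in wild type males and 1.07 to 1.34 in wild type females. Nt5e, the ectonucleotidase CD73, had 15.2 to 19.6 in mutant males, 2.68 to 4.19 in mutant females, 15.1 to 20.5 in wild type males and 3.02 to 4.01 in wild type females. In that order Sox6 stood at rank 713 (r = 0.68), Acan at 4605 (0.19), Sox5 at 7001 (-0.04) and Hapln1 at 7713 (-0.11). By deviations from group means the most alike were Klhl8 (r = 0.911), Nfe2l1, Zer1, Dpf1, Ptn, Iglon5, Ndn and Psap (0.846), none of them a gene of the cartilage lists. In these deviations Hapln1 stood at rank 1426, Sox5 at 4659 and Acan at 10799.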

How the data were processed

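RNA of the urogenital sinus (RNA integrity number above 9.5, per the labels) was sequenced as strand-specific, single-end, ribosome-depleted libraries. The deposited table holds FPKM values computed by the authors with Cufflinks, per the file headers. The submitters' processing notes name cutadapt 4.1, STAR 2.7.10a, Cufflinks 2.2.1, bedtools 2.30.0 and, as builds, mm39 and mm10, without saying which step used which. Gene ends matched GRCm38 for 2.74% of 51659 genes, so positions are given as mm39, with starts plus 1 because lengths fitted starts counted from 0. The table had 0 columns of other samples.

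Libraries were scaled by the median, over 11897 genes that reached 1 FPKM throughout, of the ratio to a gene's geometric mean. The 13904 genes that reached 1 FPKM in 3 or more libraries were fitted with limma 3.58.1 in R 4.3.3 on log2(scaled FPKM + 0.5), with 4 group means and an intensity trend. Two-sided p-values were adjusted by Benjamini-Hochberg over all genes, and genes with an adjusted p under 0.05 are called. FPKM give no read counts, so only relative depth was read, and an exact 0 is written as listed at 0. The fit was tested on simulated data. The labels do not say that replicates are separate embryos, so the p-values reflect only how these libraries vary, which may be technical.

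The members and lists were chosen with earlier results of these data known. Named genes were the 8 members, of every other list the 3 highest genes and at most 3 called genes per genotype comparison (other tissues are given as counts or sums), the 8 genes most like Cnmd by each measure, and Xist, Ddx3y and Hoxd13. Genes outside this rule are said to be chosen after their values were seen, and so were the sex-called list genes, Tnmd, Snorc, Ucma, Col9a1 and Col11a2. Alternatives covered pseudocounts (0.1, 1), filters (none, 5 FPKM), scaling, a replicate block, fits of the compared groups alone, and leaving out each library. A correction for GC content and length, and leaving out the 3 libraries high in Acan, were added after seeing the data. Promoter windows are RefSeq's for GRCm38.p6.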

Additional observations from a re-analysis of the deposited data

How the results depend on the processing

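FPKM without counts leave the absolute depth unknown, and mutant libraries were shallower than wild type ones, so low values such as those of Matn1, Matn3 and Comp, and of Cnmd in females, are imprecise. No detection floor was computed. Of the members, only Cnmd, Acan, Hapln1, Sox5 and Sox6 were tested, and with the filter at 5 FPKM 0 of them passed. The correlation of Cnmd with each gene over the libraries as they stand was not tested, because males and females form separate clusters. Where it is printed, in the order of genes most like Cnmd, it is a description that mainly records the sex split.

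The sex difference of Cnmd kept its sign in all alternatives that included it, and ran from 2.18 to 4.45 in mutants and from 1.89 to 3.40 in wild type, its extremes coming from the pseudocounts of 1 and 0.1. In the sex comparisons no member other than Cnmd was called in any alternative. Between mutants and wild type the number of members called became 1 in females with a pseudocount of 0.1 and 2 with scaling to the library sums. Over both sexes it became 1 with the FPKM as deposited, with the library sums and without the 3 libraries high in Acan. Leaving out 1 library gave 0 to 1 in females and over both sexes.

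Counts over all genes moved by more than 1.5 times as follows, the cause not being tested. Leaving out 1 library gave 1236 to 3952 called in males, 2442 to 4098 in females, 0 to 1 for the difference between sexes, 436 to 1381 by sex in mutants and 162 to 994 by sex in wild type. The FPKM as deposited, which moved the median of all genes in males to -0.14, gave 1350 in males, 1666 in females, 3424 over both sexes, 1 for the difference, 401 by sex in mutants and 254 in wild type. The library sums gave 1932 by sex in mutants, a pseudocount of 0.1 gave 1 for the difference, no filter gave 9 for it and 657 by sex in mutants, and the 5 FPKM filter gave 243 by sex in wild type. Fits of the compared groups alone gave 2360 in females, 215 by sex in mutants and 1247 by sex in wild type. The GC and length correction gave 503 in males, 1077 in females and 2387 with the sexes combined, and leaving out the 3 libraries high in Acan gave 581 by sex in mutants.

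Signs of small differences turned. With the FPKM as deposited Cnmd became -0.05 and Sox6 -0.091 in males and Sox5 -0.045 in females. With the library sums Cnmd became -0.003 and Sox6 -0.049 in males, Sox5 -0.15 in females and -0.033 over both sexes, and Hapln1 by sex in mutants 0.089. A pseudocount of 0.1 took Hapln1 by sex in mutants to 0.018, and one of 1 took Acan in males to 0.031. The GC and length correction took Sox6 to 0.07 in females, 0.037 over both sexes and -0.065 for the difference between sexes, and Sox5 to -0.002 for that difference and -0.079 by sex in mutants. Without the 3 libraries high in Acan, Acan became -0.038 in females, -0.23 over both sexes and -0.087 by sex in mutants, Sox6 -0.049 in males and -0.045 for the difference, Sox5 -0.10 for the difference and -0.11 by sex in mutants, and Hapln1 -0.31 for the difference. Leaving out 1 library, Acan ran from -0.81 to 0.36 in males, -0.038 to 0.87 in females, -0.13 to 0.46 over both sexes and -0.68 to 0.68 by sex in mutants. Sox6 ran from -0.059 to 0.14 in males, -0.17 to 0.12 in females, -0.072 to 0.073 over both sexes and -0.087 to 0.20 for the difference. Sox5 ran from -0.095 to 0.16 in females and -0.078 to 0.18 by sex in mutants, and Hapln1 from -0.17 to 0.52 for the difference and -0.42 to 0.27 by sex in mutants.

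The within-group r of Cnmd with Comp became 0.13 and with Sox6 0.066 at a pseudocount of 0.1. With the FPKM as deposited it became 0.16 for Matn1, -0.49 for Matn3 and 0.16 for Sox6, and with the library sums 0.18 for Matn1, -0.078 for Matn3, 0.01 for Comp and 0.055 for Sox6. Leaving out 1 library, it ran from -0.65 to -0.15 for Acan (lowest exact permutation p = 0.0185, unadjusted), -0.19 to 0.71 for Hapln1, -0.11 to 0.67 for Matn3, -0.16 to 0.14 for Comp, -0.34 to 0.37 for Sox5 and -0.28 to 0.28 for Sox6.

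Same-numbered libraries of different groups had deviations correlated at -0.226 to 0.317, above 0.1 in 3 of 18 pairs. Differently numbered libraries were not set beside them, so whether replicate numbers pair the samples cannot be decided from this. A replicate block changed no member's call and left the counts of all genes within 1.5 times (2857 in males, 3935 in females, 5770 with the sexes combined, 963 by sex in mutants and 365 by sex in wild type). With the block, Cnmd in females was at -0.38 (limma adjusted p = 0.0639).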
